A study of Homo sapiens with 4 samples.

Results

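MEIS binding was examined around 10 genes of the Notch pathway, namely the receptors NOTCH1, NOTCH2 and NOTCH3, the ligands DLL1, DLL4, JAG1 and JAG2, and the target genes HES1, HES5 and HEY1. They were chosen by name, with earlier results of these data known, from 20090 protein-coding genes of GENCODE 44 on GRCh37. A peak was counted at a gene when its summit, the base of highest signal, lay in the gene body extended by 250 kb on each side. The 10 windows held 13 of the 5169 sites that the authors kept as shared by both replicates with an irreproducible discovery rate (IDR) of 0.01 or less. They also held 96 of the 36796 peaks called in replicate 1 and 121 of the 47449 peaks called in replicate 2.

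The homeodomain proteins MEIS1 and MEIS2 were immunoprecipitated from untreated human neural stem cells (hNSC), a commercial culture kept in serum-free StemPro medium, and the bound DNA was sequenced (ChIP-seq). There were 2 MEIS ChIP samples, labelled rep1 and rep2, and 2 Input samples of sheared chromatin that was not immunoprecipitated. The ChIP used the antibodies K830, against the MEIS1A and MEIS2A isoforms, and K844, against MEIS1, together. A peak thus does not say which protein was bound. The study describes alternative bead washes without stating which replicate had which, and peak lists carry no read counts, which leaves the sequencing depth unknown. They also hold no expression values against which the cell label could be checked, and a site near a gene is not shown to act on it.

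Notch receptors sit on the cell surface and are activated by Delta-like (DLL) and Jagged (JAG) ligands on neighbouring cells. Proteolysis then frees the intracellular part of the receptor, which enters the nucleus and joins the DNA-binding protein RBPJ and a Mastermind (MAML) coactivator at target genes. The best known targets are the HES and HEY repressors, which hold back proneural genes and help to keep neural stem cells undifferentiated.

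Of the 10 genes, 6 had at least 1 site (60%), beside 47.7% of all protein-coding genes. HES1 had 7 sites and HEY1 had 2. NOTCH1, NOTCH2, DLL1 and JAG1 had 1 each, and NOTCH3, DLL4, JAG2 and HES5 had none in the list. The sites were thus unevenly spread, with 7 of the 13 at HES1. Some of the low counts depended on the use of both replicates. Among an equal number of top peaks of replicate 2 alone, NOTCH2 and DLL1 had 0 and JAG1 had 3. Of replicate 1 alone, NOTCH2 had 0, NOTCH3 had 1 and JAG1 had 2. There DLL1 kept 1 through another peak, 204 kb downstream, and its listed site was not among the top peaks. The summit lay inside the body of the named gene at 2 of the 13 sites, and 1 site lay within 5 kb of the gene's transcription start site (TSS), taken from the canonical transcript. By canonical transcripts, the nearest TSS of a protein-coding gene was that of the named gene at 9 of the 13 sites (69.2%). With the TSS of all transcripts the share was 61.5%.

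**Figure D1:**
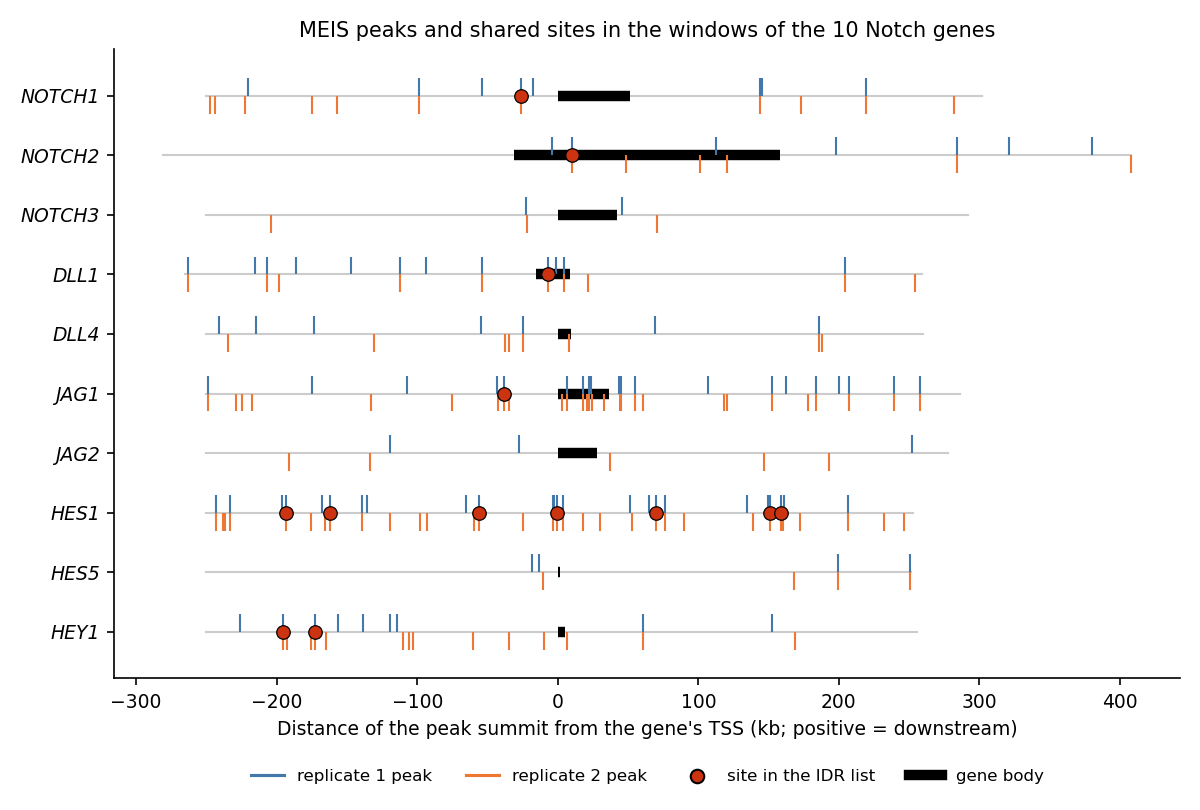
Each row is 1 gene, and the horizontal axis gives the distance in kb from its TSS, positive in the direction of transcription. Blue ticks above the line are replicate 1 peaks, orange ticks below it are replicate 2 peaks, red circles are the 13 sites, black bars are gene bodies and grey lines are the windows. HES1 carried 7 of the circles, and NOTCH3, DLL4, JAG2 and HES5 carried none.

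The sites that were present covered a wide range of strength. The list's −log10 p, which equalled the lower of the replicate values at all 13 sites, ran from 15.2 at DLL1 to 307 at HES1, with a median of 60.3 beside 29.3 over all sites. The higher median depended on the reach. With the body extended by 50 kb, 5 sites were left with a median of 20.7, below that of all sites. The median fold enrichment over Input, read from the strongest overlapping peak of each replicate, was 10.6 in replicate 1 and 18.3 in replicate 2, beside 6.38 and 11.5 over all sites. An IDR of 0.001 or less was reached by 8 of the 13 sites and by 3124 of all sites.

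Among the receptors, a strong site lay upstream of NOTCH1, a weak site lay inside NOTCH2, and NOTCH3 had only weaker peaks. NOTCH1 (ENSG00000148400, chr9:139388885-139440500, minus strand), a receptor used by many kinds of stem cell, had its site at chr9:139466119-139467431. The summit lay 26.1 kb upstream of the TSS in no annotated gene. Fold enrichment was 16.1 in replicate 1 and 14.9 in replicate 2, with a −log10 p of 128 and 60.3. The site ranked 1244 of 5169. The value was no higher in replicate 2, unlike at most sites. The ratio of replicate 2 to replicate 1 fold was 0.923, at the 1.35 percentile of all sites, where the median ratio was 1.80.

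The sequence at the NOTCH1 summit is shown because it holds the MEIS consensus TGACAG in 2 copies, the nearest of them at the summit. It spans chr9:139466576-139466676 on the plus strand of GRCh37, 101 bases centred on the summit, with TGACAG in capitals.
NOTCH1 site: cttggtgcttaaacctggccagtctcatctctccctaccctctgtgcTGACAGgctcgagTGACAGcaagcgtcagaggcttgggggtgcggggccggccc

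NOTCH2 (ENSG00000134250, chr1:120454176-120643366, minus strand), a receptor that is also expressed in neural stem cells, had its site in intron 1, 10.2 kb downstream of the TSS, at chr1:120601664-120602680. Fold enrichment was 4.68 in replicate 1 and 7.14 in replicate 2, with a −log10 p of 16.7 and 18.1, and the site ranked 4394. The sequence around it was largely not unique. Of the 465 stretches of 36 bases, the length of a read, in the 500 bp around the summit, 359 (77.2%) occurred a second time in GRCh37. NOTCH2 is known to have partial copies, the NOTCH2NL genes. The deposited peaks were called after a filter on mapping quality, and whether reads of a copy entered this site was not tested. No TGACAG lay in the 500 bp.

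NOTCH3 (ENSG00000074181, chr19:15269849-15311806, minus strand), a receptor best known from vascular smooth muscle, had 2 peaks in replicate 1 and 3 in replicate 2. Fold enrichment 22.5 kb upstream of the TSS was 5.01 in replicate 1, and the overlapping replicate 2 peak had 4.88. Their −log10 p was 18.9 and 9.83, their summits lay 303 bp apart, and the pair was not in the list. The nearest TSS was that of EPHX3, at 8.90 kb. The window held fewer replicate 1 peaks than those of most genes of its length, since 97.5% of the 200 protein-coding genes closest to it in body length had as many or more.

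Among the ligands, JAG1 had a strong distal site and many weaker peaks, DLL1 had a weak site, and DLL4 and JAG2 had no site. JAG1 (ENSG00000101384, chr20:10618332-10654647, minus strand), the ligand that is mutated in Alagille syndrome, had its site at chr20:10692294-10693306, 38.2 kb upstream of the TSS and within the long noncoding RNA gene LINC01752. Fold enrichment was 17.1 in replicate 1 and 21.4 in replicate 2, with a −log10 p of 159 and 103, and the site ranked 697. The sequence is shown because this was the strongest site at a receptor or ligand gene. It spans chr20:10692748-10692848 on the plus strand, 101 bases centred on the summit. CTGTCA in capitals is TGACAG on the minus strand, and its centre lay 44 bp from the summit.
JAG1 site: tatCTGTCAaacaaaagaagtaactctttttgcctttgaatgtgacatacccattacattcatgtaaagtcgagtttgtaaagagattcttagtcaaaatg

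JAG1 stood out from the other receptors and ligands in its number of called peaks, not of sites. Its window held 20 replicate 1 peaks and 28 replicate 2 peaks, and 1.5% and 0.5% of the 200 genes of like body length had as many or more. The window held 3 protein-coding genes, and genes in windows as sparse were not set beside it. A replicate 2 peak overlapped 15 of the 20 in replicate 1, and 14 of these lay outside the list. Of these 14, those 153 to 258 kb downstream were nearer to the TSS of SLX4IP or MKKS than to that of JAG1. They included a pair 184 kb downstream with a fold enrichment of 3.43 in replicate 1 and 11.6 in replicate 2. Within the gene, such pairs lay in introns 2, 5, 7 and 9. The intron 2 pair, 6.35 kb downstream of the TSS, had a fold enrichment of 2.65 in replicate 1 and 11.8 in replicate 2, with a −log10 p of 5.53 and 43.0. The intron 9 pair, 24.0 kb downstream, had 5.35 and 4.60, with a −log10 p of 21.2 and 10.6. The replicates thus ordered these introns differently.

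DLL1 (ENSG00000198719, chr6:170591294-170615653, minus strand), a ligand carried by differentiating neural progenitors, had its site at chr6:170606077-170608715, 7.03 kb upstream of the canonical TSS. The site lay inside the gene body, whose other transcripts start farther upstream, and in the overlapping body of FAM120B. It also lay within the long noncoding RNA gene ENSG00000271234. Among the TSS of all transcripts, the nearest to the site was one of FAM120B. Fold enrichment was 4.44 in replicate 1 and 7.14 in replicate 2, with a −log10 p of 15.2 and 18.1, and the site ranked 4767. At 2639 bp it was the widest of the 13 sites, whose median width was 1061 bp, and no TGACAG lay in its 500 bp. Intron 4 of DLL1 held a weaker pair of overlapping peaks 4.41 kb downstream of the TSS, with a fold enrichment of 3.45 and 4.95. A further pair 204 kb downstream had 5.24 and 6.33 and was not in the list either.

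DLL4 (ENSG00000128917, chr15:41221538-41231271, plus strand), a ligand best known from blood vessels, had 7 peaks in replicate 1 and 8 in replicate 2, of which 2 overlapped between the replicates. The stronger lay 186 kb downstream in intron 1 of INO80, with a fold enrichment of 3.27 in replicate 1 and 6.99 in replicate 2. The other lay 25.1 kb upstream, with 2.22 and 4.68. JAG2 (ENSG00000184916, chr14:105607319-105635161, minus strand), the second Jagged ligand, had 3 peaks in replicate 1 and 5 in replicate 2, and none overlapped. Its strongest peak reached a fold enrichment of 2.67 in replicate 1, 27.6 kb upstream, and 2.75 in replicate 2, 134 kb upstream. JAG2 was the only gene of the 10 without a place called in both replicates.

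HES1 held 7 of the 13 sites, but a smaller part of the called peaks, with 24 of 96 in replicate 1 and 32 of 121 in replicate 2, beside 20 and 28 at JAG1. HES1 (ENSG00000114315, chr3:193853937-193856521, plus strand) encodes a repressor that oscillates in neural progenitors and represses its own promoter. Its 7 sites spanned 352 kb, 4 upstream of the TSS and 3 downstream, and none lay in the 2.585 kb gene body. All lay outside protein-coding genes. The strongest, at chr3:193797091-193799125, lay 56.3 kb upstream of the TSS, within the long noncoding RNA gene ENSG00000276407, and ranked 179 of 5169. Its fold enrichment was 27.6 in replicate 1 and 71.0 in replicate 2, with a −log10 p of 307 and 406. It was the highest fold of the 13 sites in each replicate.

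The sequence at this summit spans chr3:193797614-193797714 on the plus strand and is shown as that of the strongest site of the set. CTGTCA in capitals is TGACAG on the minus strand. The 500 bp around the summit held 3 copies, 1 of them at the summit.
HES1 site 56.3 kb upstream: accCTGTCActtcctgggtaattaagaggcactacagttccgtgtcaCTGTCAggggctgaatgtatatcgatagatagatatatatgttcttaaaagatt

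The other upstream sites were weaker. The site 194 kb upstream had a fold enrichment of 6.18 in replicate 1 and 7.55 in replicate 2. Part of its sequence was repeated, since 121 of 465 stretches of 36 bases (26.0%) occurred more than once in GRCh37. The site 162 kb upstream, within the long noncoding RNA gene LINC02026, had 11.5 and 18.3. The fourth was the promoter site at chr3:193853186-193854562, with a summit 219 bp upstream of the TSS. Its fold enrichment was 5.91 in replicate 1 and 7.92 in replicate 2, with a −log10 p of 25.2 and 20.7, and it ranked 3568. The site at the promoter was thus weaker in both replicates than the sites 56.3 kb and 162 kb upstream. HES1 was the only gene of the 10 with a peak over its TSS, in replicate 1 and in replicate 2.

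The 299 bases before the HES1 TSS, chr3:193853638-193853936 on the plus strand, are shown because Notch signalling is known to act here through RBPJ. Capitals mark TGGGAA, the core bound by RBPJ, which lay 84 to 79 and 70 to 65 bases before the TSS. No TGACAG was in these bases. CACGNG, a core of the HES and HEY repressors, occurred 4 times.
HES1 promoter: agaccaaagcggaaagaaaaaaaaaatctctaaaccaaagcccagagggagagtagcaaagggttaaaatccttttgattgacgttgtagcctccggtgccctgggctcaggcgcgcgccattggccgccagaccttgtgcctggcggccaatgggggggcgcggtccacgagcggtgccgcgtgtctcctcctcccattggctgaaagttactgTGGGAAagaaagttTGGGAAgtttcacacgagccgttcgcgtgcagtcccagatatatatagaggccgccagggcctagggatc

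Of 35116 RefSeq promoters (GRCh38.p14, both strands, 250 bases before to 50 after the start), 24.0% held TGGGAA and 3.80% held it at least 2 times. The table matched 8 of the 10 genes, all but DLL1 and HEY1. HES1 and HES5 held TGGGAA at least 2 times, and the other 6 matched genes held none. CACGNG was in 30.5% of the promoters and in 6 of the 8 matched genes, NOTCH2, NOTCH3, DLL4, JAG1, JAG2 and HES1. TGACAG was in 15.8% of the promoters and in 2 of the 8, DLL4 and JAG2. Such strings are short, and a match is a description and not a shown binding site.

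At the 3 listed sites downstream of HES1 the replicates differed in strength more than at nearly all other sites. The site 69.8 kb downstream, within LINC02036, had a fold enrichment of 11.1 in replicate 1 and 46.5 in replicate 2. The site 151 kb downstream, within LINC02048, had 10.6 and 52.6, and the site 159 kb downstream had 5.54 and 21.7. The ratio of replicate 2 to replicate 1 was 4.21, 4.98 and 3.92, at the 99.1, 99.7 and 98.5 percentiles of all sites. The 5th to 95th percentiles of the ratio over all sites were 1.09 and 3.19. The 4 upstream sites had ratios of 1.22, 1.59, 2.57 and 1.34, so the values of the listed sites upstream and downstream did not overlap. They did overlap among the HES1 pairs outside the list, where the ratio ran from 1.81 to 3.74 over 4 peaks of replicate 1 downstream and from 1.26 to 12.7 over 5 upstream. The pair 76.3 kb downstream, for example, had a fold enrichment of 3.48 and 6.29. The ratio of 12.7 sets a weak replicate 1 peak 2.40 kb upstream against a replicate 2 peak whose summit lay 1130 bp away. That replicate 2 peak also overlapped the replicate 1 peak 3.52 kb upstream, where the ratio was 2.94, the next highest upstream. With 1 value per replicate and unknown depth and washes, the part of these in the difference cannot be told apart. The 2 sites farthest downstream were nearer to the TSS of CPN2, at 67.5 kb and 59.4 kb, than to that of HES1.

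**Figure D2:**
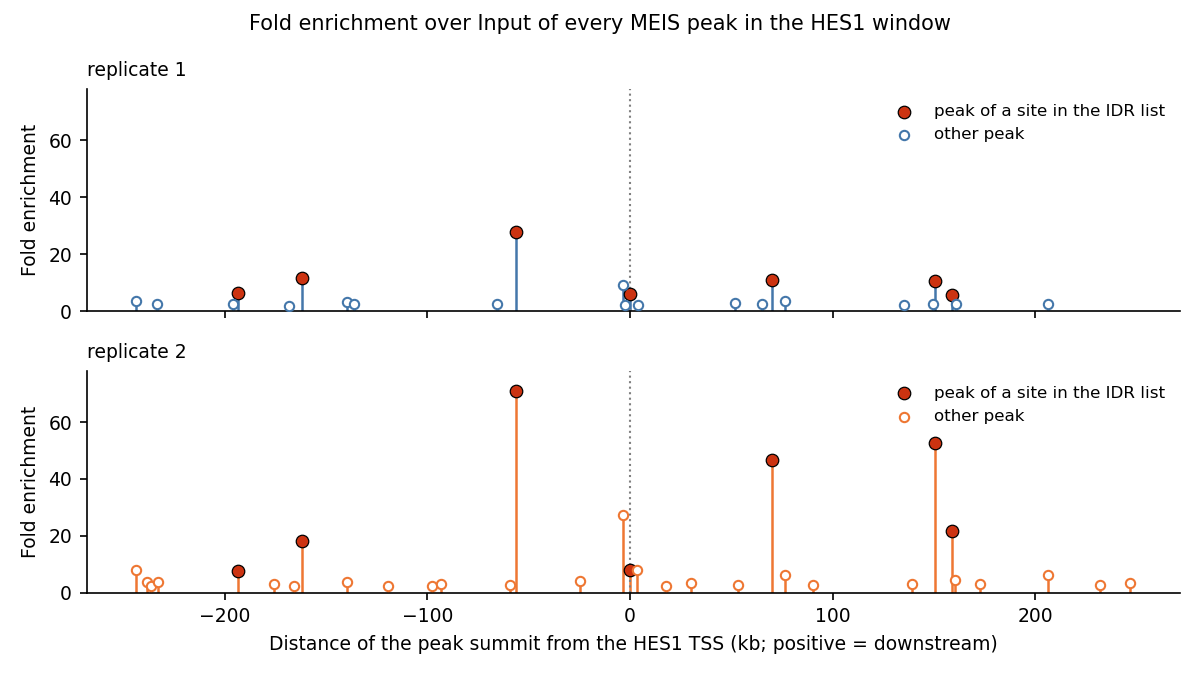
Fold enrichment over Input (vertical axis) of every peak in the HES1 window by distance from the HES1 TSS in kb (horizontal axis), replicate 1 above and replicate 2 below. Filled red points are peaks of the 7 sites and open points are other peaks. The downstream sites stand at 5.54 to 11.1 in replicate 1 and at 21.7 to 52.6 in replicate 2, and the open point near the TSS marks the peak at 9.30 and 27.3 that is not in the list.

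The sites 69.8 kb and 159 kb downstream of HES1 resembled each other in sequence. Their 500 bp windows aligned in the same orientation over 271 columns with 77.1% identity, while any other pair of HES1 sites, in the orientation that aligned better, shared at most 11 bases in a row. The 101 bases at each summit are shown with the 21 bases that they share in capitals. They span chr3:193923734-193923834 and chr3:194012634-194012734 on the plus strand.
HES1 site 69.8 kb downstream: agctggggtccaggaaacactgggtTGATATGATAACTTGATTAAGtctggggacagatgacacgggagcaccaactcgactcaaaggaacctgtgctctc
HES1 site 159 kb downstream: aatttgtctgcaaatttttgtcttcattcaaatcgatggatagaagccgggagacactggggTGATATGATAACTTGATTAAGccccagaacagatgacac

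The run of 21 bases occurred at these 2 places in GRCh37 and nowhere else on either strand. Beside the summits the windows shared a longer run of 48 bases, which 2 of the 5169 site windows held.
Shared run: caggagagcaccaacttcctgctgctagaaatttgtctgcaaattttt

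The assembly held the run of 48 bases 3 times, each in the HES1 window. The third copy, on the minus strand 234 kb upstream of the TSS, was covered by a peak in each replicate with a fold enrichment of 2.58 and 3.79 and by no site, and the peak summits lay 0.386 kb and 0.772 kb from it. The run is longer than a read of 36 bp. Of the 465 stretches of 36 bases in the windows of the 2 sites, 23 and 13 (4.95% and 2.80%) occurred more than once as exact matches. Whether reads of a copy entered either site was not tested. The site 69.8 kb downstream had no TGACAG in its 500 bp, and the other had 1, 178 bp from its summit.

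A further strong place near HES1 was absent from the list. At chr3:193850015-193850818, 3.52 kb upstream of the TSS, the replicate 1 peak had a fold enrichment of 9.30 and the overlapping replicate 2 peak had 27.3. Their −log10 p was 67.9 and 129 and their summits lay 6 bp apart. By the lower of these values, 1106 of the 5169 sites (21.4%) were stronger. The replicate 2 peak also overlapped a weaker replicate 1 peak, 2.40 kb upstream, with a fold enrichment of 2.15. Of the overlapping pairs whose lower −log10 p reached the list's median, 35 lay outside it, and in all 35 a peak overlapped more than 1 peak of the other replicate, beside 25 of the 2602 such pairs inside it (0.961%). Among all pairs that reached the list's lowest value, 12.5, the feature was found in 76 of 725 outside the list (10.5%) and in 40 of 5183 inside it (0.772%), so most of the pairs left out at that strength lacked it. The pair 204 kb downstream of DLL1 was among the 725 and lacked it. Whether the overlap led to the omission was not tested.

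The sequence at the replicate 1 summit of this pair, chr3:193850366-193850466 on the plus strand, is shown because it holds TGACAG, in capitals, at the summit of a strong pair outside the list.
HES1 pair 3.52 kb upstream: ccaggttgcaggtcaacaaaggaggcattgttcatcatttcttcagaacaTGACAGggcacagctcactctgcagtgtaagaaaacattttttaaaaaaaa

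The number of sites at HES1 was high for a gene of its length. None of the 200 protein-coding genes closest to it in body length, from 2.416 to 2.751 kb, had 7 or more, and their mean was 0.605 with a highest count of 5. Of all protein-coding genes, 85 (0.423%) had 7 or more. The HES1 window held 3 protein-coding genes. Among the 200 genes closest in length with at most 3 in their window, from 0.827 to 4.342 kb long, the highest count was 6. Its 24 replicate 1 peaks and 32 replicate 2 peaks were also matched by none of the 200 genes of 2.416 to 2.751 kb. Peak counts of the genes in sparse windows were not set beside them. The site count rests on distant sites, because a reach of 50 kb left 1 site, which 9.5% of the 200 genes closest in body length matched. For HEY1, 16.5% of the genes of like length had 2 or more sites. For NOTCH1, NOTCH2, DLL1 and JAG1 the share with at least 1 was 43% to 62%.

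**Figure D3:**
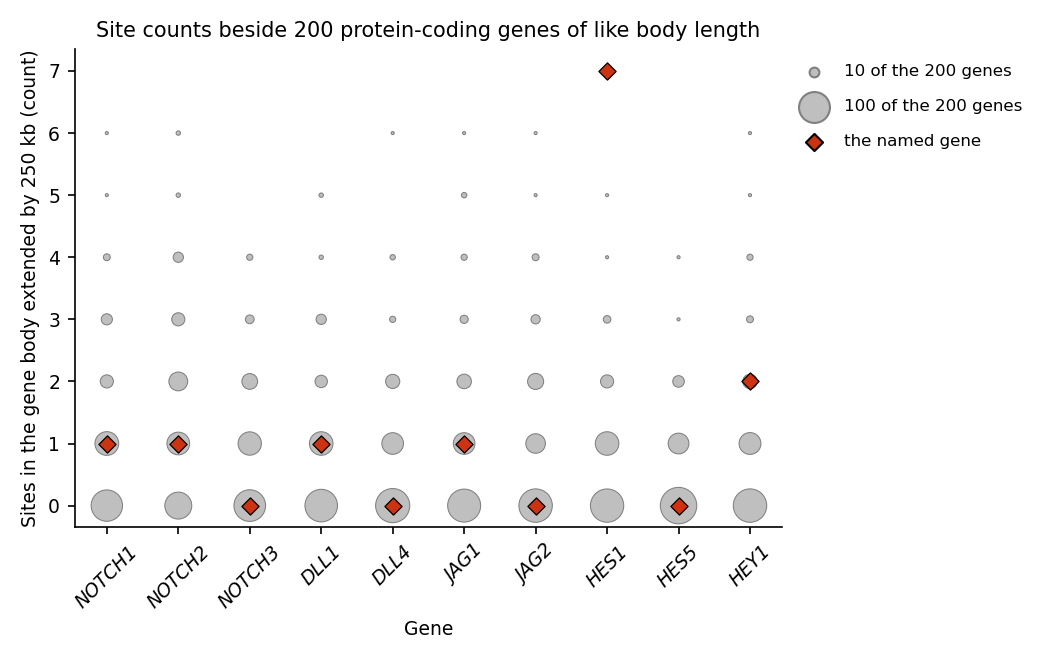
For each gene on the horizontal axis, the vertical axis gives the number of sites in the body extended by 250 kb. Red diamonds are the 10 genes, and grey circles are the 200 protein-coding genes closest in body length, with the circle area showing how many genes had that count. The diamond of HES1 stands at 7, above all its circles, which end at 5, and each other diamond lies on a circle.

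HEY1 (ENSG00000164683, chr8:80674606-80680092, minus strand), a repressor of the HEY family and a direct Notch target, had 2 sites, both far upstream in intron 2 of MRPS28 and nearer to the TSS of that gene. The site 196 kb upstream had a fold enrichment of 14.5 in replicate 1 and 18.6 in replicate 2, with a −log10 p of 130 and 103. It ranked 693, and TGACAG lay 1 bp from its summit. The site 173 kb upstream had 4.76 and 10.2 and ranked 4016. Near the gene, a peak 9.72 kb upstream with a fold enrichment of 8.34 was called in replicate 2 without a partner in replicate 1.

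HES5 (ENSG00000197921, chr1:2460184-2461702, minus strand), a Notch effector of neural stem cells, had 4 peaks in each replicate and no site. The strongest replicate 1 peak lay 251 kb downstream in intron 1 of SKI, with a fold enrichment of 4.22, and its replicate 2 partner had 3.30. A second pair 199 kb downstream in intron 12 of MORN1 had 2.79 and 3.58. The peak nearest the gene in replicate 2, 10.6 kb upstream, had 5.23 and no partner. Undetermined bases made up 9.97% of the HES5 window, 9.06% of that of NOTCH1 and 7.25% of that of NOTCH2, where no read can map.

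At the 10 genes, 52 of 96 peaks of replicate 1 (54.2%) met a peak of replicate 2, beside 49.0% genome-wide. In the other direction it was 51 of 121 (42.1%), beside 38.0%. Thus 39 replicate 1 peaks had a partner but no site, and 14 of them were at JAG1 and 9 at HES1.

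**Figure D4:**
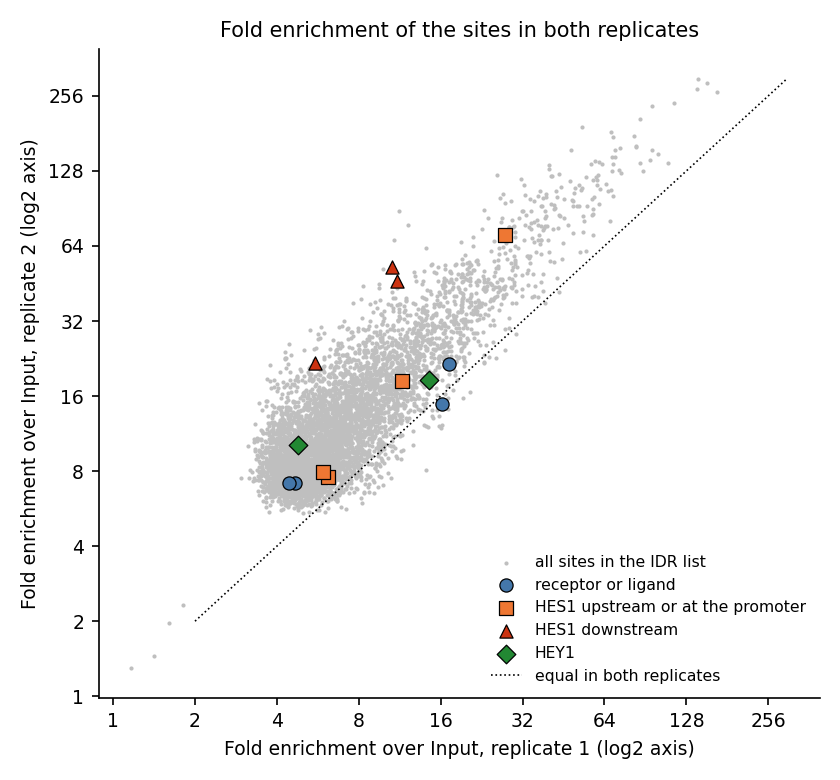
Fold enrichment over Input of each site in replicate 1 (horizontal) and replicate 2 (vertical), both on log2 axes. Grey points are all 5169 sites, coloured symbols are the 13 sites at the Notch genes, and the dotted line marks equal values. The HES1 sites downstream of the gene (triangles) lie along the upper edge of the grey points, and the NOTCH1 site at 16.1 and 14.9 lies below the dotted line.

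Exact matches to consensus strings were counted on both strands in the 500 bp around the 13 summits. Near matches were not counted, so a site without a string may still hold a similar sequence. TGACAG was in 7 sites (53.8%, Wilson 95% confidence interval 29.1 to 76.8%), beside 58.3% of all sites, and within 50 bp of the summit in 4. TGGGAA, the RBPJ core, was in 8 (61.5%, 35.5 to 82.3%), beside 38.7%. The SOX strings CATTGT or CTTTGT were in 10 (76.9%, beside 71.0%), the proneural E box CAGCTG in 4 (30.8%, beside 34.2%), and CACGNG in 2 (15.4%, beside 16.8%). GGAATG, the TEAD core, was in 2 (15.4%, 4.33 to 42.2%), beside 38.2%, and the composite PBX-MEIS consensus in none, beside 4.93%. Each interval held the value over all sites. The intervals treat the 13 sites as independent, although 7 were at HES1 and 2 of those resembled each other in sequence. The shares are thus a description, and no difference was tested. The 6 sites without TGACAG were those of NOTCH2 and DLL1 and 4 of HES1, and they included the site with a fold enrichment of 52.6 in replicate 2.

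Other genes of the pathway were counted for comparison from a list of 49. A site was found for 22 of them (44.9%), beside 47.7% of all protein-coding genes, and a site inside the gene body for 8 (16.3%), beside 8.36% of those genes, with no allowance for body length. Among the 8 were the coactivators MAML2 and MAML3, the ligand-activating ubiquitin ligase MIB1, the ligase DTX4 and the corepressors TLE1, TLE2 and TLE4. TLE proteins are the corepressors that HES proteins recruit. RBPJ, the DNA-binding partner of all Notch receptors, had no site.

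TLE4 and MAML2 had the most sites, 7 each, and TLE1 and TLE3 were among those tied at 4. TLE4 had 5 in its body, and 0.5% of the genes of like length had as many sites. All 7 of MAML2 lay in its body, and 3.5% of the genes of like length had as many. At TLE3 the strongest site, 1.86 kb upstream of the TSS, had a fold enrichment of 31.9 in replicate 1 and 48.9 in replicate 2. At TLE4 the strongest, 0.499 kb upstream, had 24.9 and 32.4, and at TLE1 the strongest, 0.447 kb upstream, had 22.2 and 36.4. These 3 TLE genes thus had strong sites close to their start. Other genes of the 49 had sites as close to their start, at lower fold enrichment. Among the 10 genes only HES1 had a listed site within 5 kb of its TSS, and that site was weak, with 5.91 and 7.92. The stronger HES1 pair 3.52 kb upstream, with 9.30 and 27.3, was not in the list. The MIB1 site, 19.3 kb downstream in the gene body, had 19.7 and 31.0.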

How the data were processed

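Binding of MEIS1 and MEIS2 was measured by ChIP-seq in 2 ChIP samples, with 2 Input samples that entered only through the authors' peak calling. The authors trimmed paired 36 bp reads with cutadapt 1.16, mapped them to GRCh37 with Bowtie2 2.3.0, used SAMtools 1.2 to filter on mapping quality and Picard 2.15.0 to drop duplicates. They called peaks per replicate with MACS2 at a p-value of 0.01, its version not given in the sources used here, and combined the lists with IDR 2.0.3. The deposited replicate lists give fold enrichment over Input, a linear ratio, with −log10 p and −log10 q, as the authors' peak caller wrote them. Identical folds recur at different genes, such as 7.14 in replicate 2 at the NOTCH2 and DLL1 sites. How the caller set the background at each peak is not given in the sources used here, so a fold may not be the ratio to Input at that place. For each shared site the deposited list holds the −log10 p, the −log10 IDR and a score scaled from the IDR. Its 8 columns of per-replicate values were not used. Replicates are known only as rep1 and rep2, from batches of cells processed in parallel, and read depth is unknown.

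Summits were assigned to genes of GENCODE 44 in a window of the body extended by 250 kb, replicate peaks were paired at 1 bp of overlap, and distances were taken from canonical transcripts. Strings were searched as exact matches on both strands in 500 bp. Counts were set beside those of the 200 protein-coding genes whose body length was closest. No test was made, since peaks are not replicates. Intervals on shares are Wilson intervals and cover the number of sites alone. Named were the 10 genes with every site, the strongest peaks of genes without a site, the nearest gene of each site, other pathway genes with a site in the body and those with the most sites. An item that this rule would name is not reported here. The genes, lists and strings were chosen with earlier results of these data known. The HES1 shared sequence, the strong pairs outside the list and the repeated stretches of read length were looked at after the data had been seen. Counting was tested on simulated data. Python 3.11.15, pandas 2.3.3, scipy 1.17.1 and pysam 0.24.0 were used.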

Additional observations from a re-analysis of the deposited data

How the results depend on the processing

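No paired analysis was possible because no values of Input alone were given. The reach decided most counts, by construction. With the body alone there were 2 sites at 2 genes and at most 1 per gene, 10 and 14 replicate peaks, and 8 other pathway genes with a site. With 50 kb there were 5 sites, at most 1 per gene, 30 and 40 replicate peaks, 14 other pathway genes, a median −log10 p of 20.7 and 0 genes with a count that at most 5% of like genes reach, against 1 (HES1) at 250 kb. With 500 kb there were 20 sites, 11 of them at HES1, and 154 and 189 replicate peaks. An IDR of 0.001 or less left 8 sites with a median −log10 p of 102, and the replicate values alone gave medians of 77.4 and 71.4. A −log10 p of at least 5 was held by 51 and 64 replicate peaks, and 76.5% of the former were met in replicate 2, while summits within 100 bp gave 38.5%. Leaving out replicate 1 or 2, by taking an equal number of top peaks from the other, gave 14 to 15 sites at the 10 genes, 4 to 6 genes with a site, 25 to 26 other pathway genes and 7 to 8 sites at HES1. Adding strong overlapping pairs outside the list, chosen after seeing the data, gave 15 sites. Of 56 alternatives for the summary values, 31 stayed within 1.5 times a count, the interval of a share or the spread between replicates, and 25 did not. Of 70 for the site counts of single genes, 52 did and 18 did not. Depth was unknown, so an absent peak cannot be told from an undetected peak.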
